A study of Mus musculus with 19 samples.

Results

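The Notch pathway was followed here through 10 genes in whole mouse kidney: the ligand genes Jag1, Jag2, Dll1 and Dll4, the receptor genes Notch1, Notch2 and Notch3, the target genes Hes1 and Hey1, and Rbpj, the DNA-binding partner of the receptors. They were chosen by name, by matching the gene identifiers of the RNA files to mouse symbols. Of these 10 genes, 9 had values among the 54146 genes listed, and Notch3 is not analysed here. All 9 passed the filter on low values, a 5-library mean not under 1 TPM, as did 13963 genes in all. TPM is a transcript abundance corrected for gene length and brought to 1 common sum per library, so levels can be compared between genes.

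Messenger RNA was sequenced from kidneys of mice of strain B6C3F1/J at postnatal day 21, or 3 weeks of age. The KspCre DKO group held 2 libraries of genotype KspCre Dnmt3ab f/f, in which Cre recombinase is driven by the Ksp-cadherin promoter and both Dnmt3a and Dnmt3b are floxed. The control group held 3 libraries of genotype Dnmt3ab f/f, which carry the floxed genes without Cre. Dnmt3a and Dnmt3b encode the de novo DNA methyltransferases, and the study concerned what their loss during kidney development does to the organ. Ksp-cadherin (Cdh16) is a marker of tubule epithelium, and blood vessels and stroma are not among the cells in which its promoter is known to be active. Whether libraries of a group come from different animals is not said, so every p-value here measures the spread between libraries, which may be technical. The other 14 of the 19 samples are bisulfite libraries and are not analysed here.

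Notch signalling passes between touching cells. A ligand of the Jagged or Delta-like family on one cell binds a Notch receptor on its neighbour, proteases release the intracellular part of the receptor, and this part joins RBPJ in the nucleus to switch on genes such as Hes1 and Hey1. In the mouse kidney the pathway is known for its part in the fate of proximal nephron cells, which depends mainly on Notch2, for the choice between principal and intercalated cells in the collecting duct, and, as in other organs, for arterial vessel identity, where Dll4, Notch1 and Hey1 act.

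None of the 9 genes passed the test between KspCre DKO and control kidneys. The test was limma on log2(TPM + 1) over all 13963 genes, two-sided, with Benjamini-Hochberg adjustment and a threshold of 0.05. The background was 0.165% of tested genes called, 14 higher and 9 lower in KspCre DKO kidneys. The smallest adjusted p among the 9 genes was 0.402, that of Jag1, which was also the 1 gene of the 9 with an unadjusted p below 0.05, where the background was 10.3% of tested genes. The called genes of the whole table differed by at least 1.68 on the log2 scale, more than any of the 9 genes. The split of the calls moved with scaling, to 23 higher and 7 lower under median-of-ratios scaling and 35 higher and 7 lower under quantile normalization. The number of calls also rested on single libraries: leaving out KspCre DKO replicate 1 gave 560, leaving out KspCre DKO replicate 2 gave 6, and leaving out control replicates 1, 2 and 3 gave 59, 10 and 8. No call was made among the 9 genes in any of these refits.

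The libraries set limits on what can be read from single genes. KspCre DKO replicate 2 listed 14710 genes above 0 TPM, against 18488 to 20510 in the other 4 libraries. Mitochondrially encoded genes held 31.0% of its TPM, against 22.1% in KspCre DKO replicate 1 and 18.2% to 23.2% in controls, and a larger share leaves less of the common sum to all other genes. With TPM rescaled without these genes, the log2 differences of Jag1, Dll4, Rbpj and Hes1 were −1.41, −0.56, −0.84 and −0.33. KspCre DKO replicate 2 lay below all controls for 57.7% of tested genes and above all controls for 16.7%, whereas KspCre DKO replicate 1 lay below them for 19.9% and above them for 40.0%. Dnmt3a stood at 9.98 and 14.2 TPM in KspCre DKO libraries against 13.2 to 18.97 TPM in controls, and Dnmt3b at 2.29 and 3.25 TPM in KspCre DKO libraries against 1.82 to 2.86 TPM in controls. These overlapping values give no check of the genotype labels, and the TPM of a whole gene need not show the loss of a floxed exon in part of the cells. Cdh16, the gene whose promoter drives Cre, stood at 1121 and 906 TPM in KspCre DKO libraries and at 895 to 986 TPM in controls. The files hold no read numbers, so depth is unknown and no counting interval can be given.

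**Figure D1:**
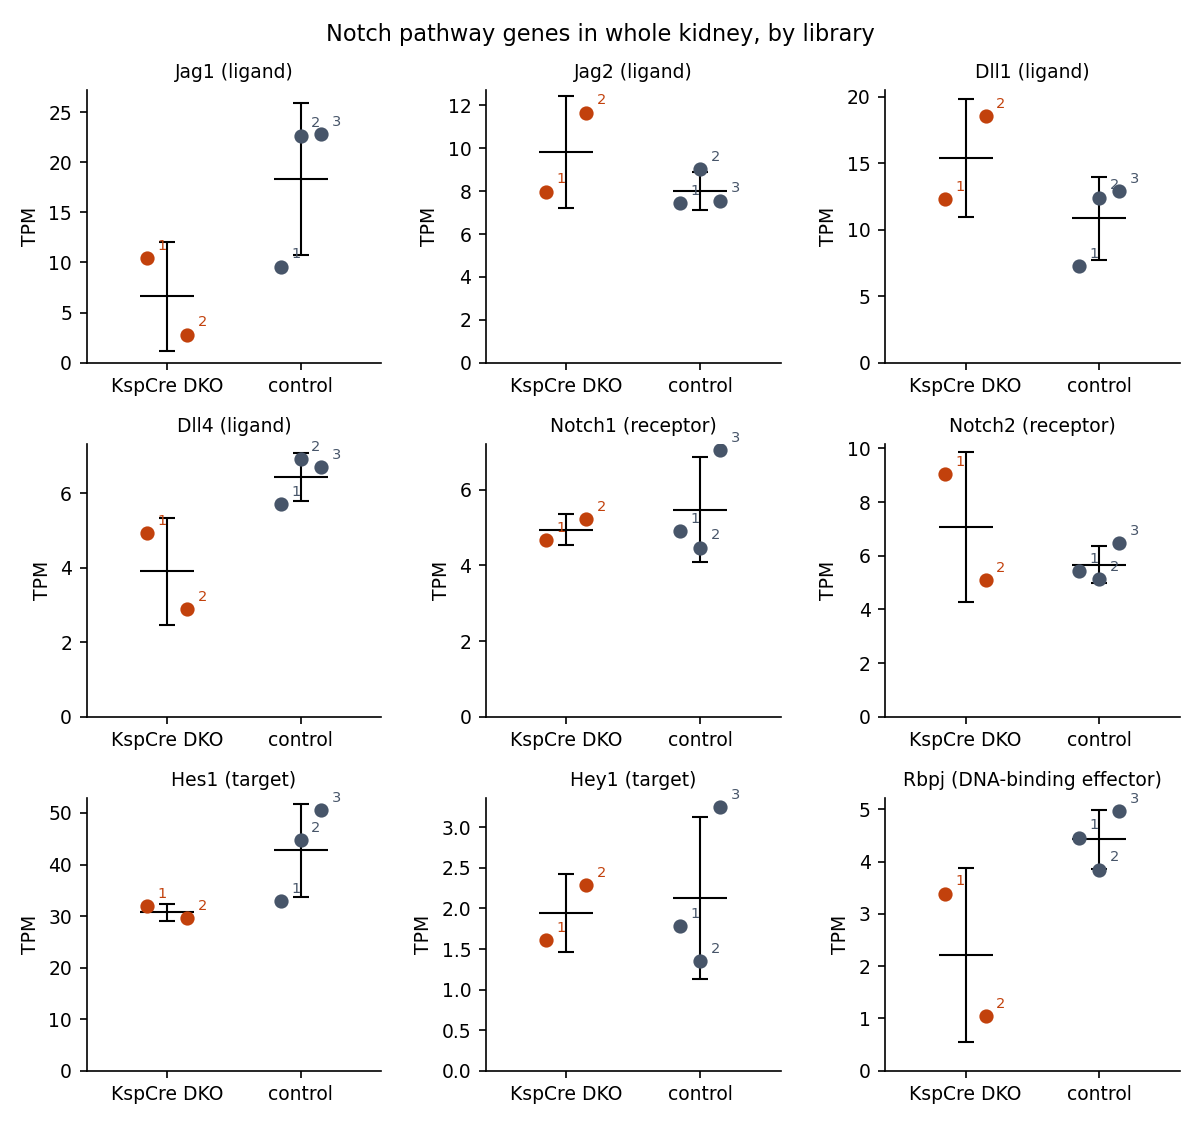
TPM of the 9 Notch pathway genes in each library (y axis, from 0), KspCre DKO libraries in orange and control libraries in grey, with the replicate number beside each point and bars for the mean ± SD (n = 2 and n = 3). The groups do not overlap for Dll4, Hes1 and Rbpj, and KspCre DKO replicate 2 is the lowest library for Jag1, at 2.78 TPM.

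Jag1 (ENSMUSG00000027276.7, chromosome 2, 137081451 to 137116520 in GRCm38.p6), the Jagged ligand whose human counterpart is mutated in Alagille syndrome, differed most between the groups. It stood at 10.4 and 2.78 TPM in KspCre DKO kidneys, against 9.59, 22.65 and 22.8 TPM in controls. KspCre DKO replicate 1 lay just above the lowest control, so the groups overlapped, and KspCre DKO replicate 2 lay far below the other 4 libraries. On the log2 scale the difference was −1.46 ± 0.54 (SE; adjusted p = 0.402, limma), with a 95% interval of −2.70 to −0.22. Leaving out KspCre DKO replicate 2 gave −0.67 and leaving out KspCre DKO replicate 1 gave −2.26, each with a single library of that genotype left, taken to vary like the controls. Without control replicate 1, the control with the low value, it was −1.85.

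Jag2 (chromosome 12, 112907803 to 112929812), the second Jagged ligand, stood at 7.98 and 11.7 TPM in KspCre DKO kidneys and at 7.43, 9.02 and 7.56 TPM in controls. One KspCre DKO library lay inside the control range and the other above it. The log2 fold change was 0.25 ± 0.31 (SE; adjusted p = 0.815, limma), with a 95% interval of −0.47 to 0.97, and it was 0.00073 without KspCre DKO replicate 2. The difference was smaller than the spread between libraries.

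Dll1 (chromosome 17, 15367354 to 15376932), a Delta-like ligand used in many embryonic tissues, stood at 12.3 and 18.6 TPM in KspCre DKO kidneys and at 7.25, 12.4 and 12.9 TPM in controls. The groups overlapped, since KspCre DKO replicate 1 lay between the controls while KspCre DKO replicate 2 was the highest of the 5 libraries. Dll1 differed by 0.48 ± 0.36 on the log2 scale (SE; adjusted p = 0.677, limma), with a 95% interval of −0.34 to 1.297. Refits gave 0.20 if KspCre DKO replicate 2 was left out, 0.76 if KspCre DKO replicate 1 was, and 0.24 if control replicate 1 was.

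Dll4 (chromosome 2, 119325784 to 119335666), the Delta-like ligand of arterial endothelium and sprouting vessels, stood at 4.92 and 2.89 TPM in KspCre DKO kidneys, against 5.71, 6.91 and 6.69 TPM in controls. Both KspCre DKO libraries lay below all 3 controls. Their log2 difference was −0.63 ± 0.34 (SE; adjusted p = 0.576, limma), with a 95% interval of −1.41 to 0.15, and it was −0.33 without KspCre DKO replicate 2. Of 14 endothelial markers 13 had values, none at 0 in any library, and their summed level was 694 and 518 TPM in KspCre DKO kidneys against 520 to 845 TPM in controls. Of the 13 markers 11 had negative and 2 positive log2 fold changes. The groups did not overlap for 4 of them, 30.8%, against 26.1% of all tested genes. Egfl7, Cldn5 and Robo4 lay below all controls in both KspCre DKO libraries, and Eng above them. The 5 arterial markers summed to 39.1 and 40.7 TPM in KspCre DKO kidneys against 48.5 to 54.2 TPM in controls, and this sum did not overlap between the groups. Its members did not move one way. Sox17 and Gja4 were below all controls in both KspCre DKO libraries, Efnb2 was above them at 11.7 and 10.2 TPM in KspCre DKO kidneys against 6.19 to 8.94 TPM in controls, and Gja5 and Bmx overlapped. The part of endothelial content in the Dll4 values was not tested, and in whole kidney fewer cells of a type cannot be told apart from less RNA per cell.

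Together the 4 ligand genes summed to 35.6 and 35.9 TPM in KspCre DKO kidneys and to 29.98, 51 and 49.97 TPM in controls, which overlap. The share of each gene in that sum was also computed. Jag1 made up 29.3% and 7.75% of it in KspCre DKO kidneys, against 32.0%, 44.4% and 45.6% in controls. Dll1 made up 34.5% and 51.7% in KspCre DKO kidneys, against 24.2%, 24.4% and 25.9% in controls. For both genes the groups did not overlap, although KspCre DKO replicate 1 came within a few percentage points of control replicate 1 for Jag1. The shares of Jag2, 22.4% and 32.5% in KspCre DKO kidneys against 15.1% to 24.8% in controls, overlapped. So did those of Dll4, 13.8% and 8.05% in KspCre DKO kidneys against 13.4% to 19.0% in controls. The 4 shares are tied, since a lower share of one gene raises those of the others. Jag1 held a larger part than Dll1 in each control and a smaller part in each KspCre DKO library. The level of Jag1 divided by that of Dll1 was 0.849 and 0.150 in KspCre DKO kidneys, against 1.32, 1.82 and 1.76 in controls. Such a ratio within a library does not depend on how libraries are scaled. Among the 4 ligand genes Jag1 had the lowest log2 fold change, −1.46, and Dll1 the highest, 0.48. Their ratio therefore pairs the extremes of these same data, and its separation is no added evidence. These shares and ratios are descriptions, with no test. The mean difference in the share of Jag1 was −22.2 percentage points, and it became −11.4 if KspCre DKO replicate 2 was left out and −32.9 if KspCre DKO replicate 1 was.

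**Figure D2:**
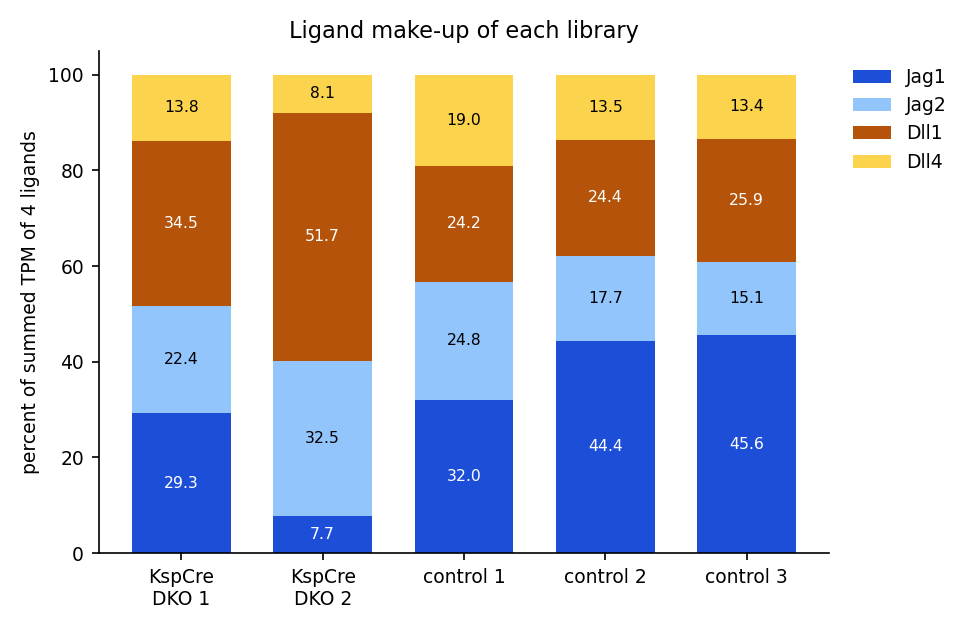
Share of each ligand gene in the summed TPM of the 4 ligand genes (y axis, percent), 1 stacked bar per library with the value printed in each block. Jag1 is the largest block in the 3 control libraries and Dll1 the largest in both KspCre DKO libraries, most of all in KspCre DKO replicate 2, where Dll1 reaches 51.7%.

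The receptors showed small differences. Notch1 (chromosome 2, 26457902 to 26503822), a receptor of endothelium and many epithelia, stood at 4.66 and 5.23 TPM in KspCre DKO kidneys and at 4.90, 4.47 and 7.05 TPM in controls. The KspCre DKO libraries lay among the controls. Its log2 fold change was −0.10 ± 0.34 (SE; adjusted p = 0.937, limma), with a 95% interval of −0.87 to 0.66, and its sign turned, to 0.064 without control replicate 3 and to 0.0062 under median-of-ratios scaling.

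Notch2 (chromosome 3, 98013538 to 98150367), the receptor on which proximal nephron fates depend in the mouse, stood at 9.05 and 5.10 TPM in KspCre DKO kidneys and at 5.43, 5.13 and 6.46 TPM in controls. KspCre DKO replicate 1 lay above the control range and KspCre DKO replicate 2 just below it. The difference on the log2 scale was 0.24 ± 0.35 (SE; adjusted p = 0.845, limma), with a 95% interval of −0.56 to 1.03. Leaving out KspCre DKO replicate 2 gave 0.60, and leaving out KspCre DKO replicate 1 turned the sign, to −0.12. Notch2 held 66.0% and 49.4% of the sum of both receptor genes in KspCre DKO kidneys, against 52.6%, 53.4% and 47.8% in controls. That mean difference of 6.42 percentage points became 14.7 if KspCre DKO replicate 2 was left out and −1.90 if KspCre DKO replicate 1 was.

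Rbpj (chromosome 5, 53555779 to 53657445), the DNA-binding protein through which all Notch receptors act, stood at 3.39 and 1.04 TPM in KspCre DKO kidneys, against 4.46, 3.85 and 4.97 TPM in controls. Both KspCre DKO libraries lay below all 3 controls, the second one further than the first. Rbpj differed by −0.85 ± 0.42 on the log2 scale (SE; adjusted p = 0.531, limma), with a 95% interval of −1.81 to 0.11. This became −0.30 if KspCre DKO replicate 2 was left out and −1.41 if KspCre DKO replicate 1 was.

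Start site windows of 250 bases before to 50 bases after an annotated start were taken from RefSeq, assembly GRCm38.p6, and gave 9 windows for 7 of the genes. No window was available for the target genes Hes1 and Hey1, so their start regions were not searched. The letters TGGGAA, the core of the site that RBPJ binds, were searched on both strands. They were found in the 2 overlapping windows of Rbpj and in none of the other 7, whereas 25.6% of all 32851 windows held at least 1 match and 3.79% held at least 2. The 250 bases before one Rbpj start, chr5:53590096-53590345 on the plus strand and inside the annotated span of the gene, are shown because they held the most matches of these windows. Capitals mark the matches, one on the gene strand beginning 149 bases before the start and one on the opposite strand, read as TTCCCA, beginning 65 bases before it.
Rbpj: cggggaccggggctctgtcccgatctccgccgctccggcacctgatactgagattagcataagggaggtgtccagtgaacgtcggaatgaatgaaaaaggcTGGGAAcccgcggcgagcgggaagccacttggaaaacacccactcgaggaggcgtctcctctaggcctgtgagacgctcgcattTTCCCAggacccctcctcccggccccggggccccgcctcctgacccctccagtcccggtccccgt
The second match also lies in the other Rbpj window. All 9 windows were richer in CpG, the pair of bases at which DNA is methylated, than the median window, with an observed to expected ratio of 0.595 for Dll4 to 1.14 for Jag2 against a median of 0.384. Ratios above that of Dll4 were common, in 36.1% of all windows. These are descriptions of the reference sequence, and methylation of these windows is not analysed here.

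Hes1 (chromosome 16, 30065357 to 30067796), a transcriptional repressor and the classical Notch target, was the most abundant of the 9 genes in each group. It stood at 31.9 and 29.6 TPM in KspCre DKO kidneys, against 32.95, 44.8 and 50.5 TPM in controls. The KspCre DKO libraries were close to each other and lay below all controls, with replicate 1 close to the lowest control. That control, replicate 1, had the smallest mitochondrial share, 18.2% against 22.1% in KspCre DKO replicate 1. The narrow gap between these libraries therefore depends on how libraries are scaled. The log2 fold change was −0.44 ± 0.29 (SE; adjusted p = 0.639, limma), with a 95% interval of −1.11 to 0.22. Unlike those of Jag1, Dll4 and Rbpj, it moved little without KspCre DKO replicate 2, to −0.39. Values over all refits that left out 1 library ran from −0.61 to −0.31. The difference was −0.33 with TPM rescaled without mitochondrially encoded genes and −0.32 under median-of-ratios scaling.

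Hey1 (chromosome 3, 8663359 to 8667038), a repressor of the related Hey family with a part in arterial identity, was the least abundant. It stood at 1.61 and 2.29 TPM in KspCre DKO kidneys and at 1.78, 1.35 and 3.25 TPM in controls. The KspCre DKO libraries lay among the controls. Its log2 fold change was −0.047 ± 0.42 (SE; adjusted p = 0.978, limma), with a 95% interval of −1.02 to 0.92, and the sign turned under each of the 3 scaling alternatives, to between 0.037 and 0.057. It turned as well without control replicate 3, to 0.20, and without KspCre DKO replicate 1, to 0.12.

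In TPM as deposited, Dll4, Hes1 and Rbpj were thus 3 of 9 genes whose groups did not overlap, 33.3%, with the KspCre DKO libraries lower in all 3. Over all tested genes that share was 26.1%, and 15.6% with the KspCre DKO libraries lower. Beside these shares 3 genes is a small count, and the gap of Hes1 depends on scaling. KspCre DKO replicate 2 lay below all controls for 5 of the 9 genes, close to the 57.7% of all genes in that library. KspCre DKO replicate 1 lay within the control range for 5 of 9, against 40.1% of all genes. The median log2 fold change was −0.10 over the 9 genes and −0.14 over all tested genes, with 3 positive and 6 negative values among the 9; under median-of-ratios scaling the median of the 9 was 0.0062, with 4 negative values.

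**Figure D3:**
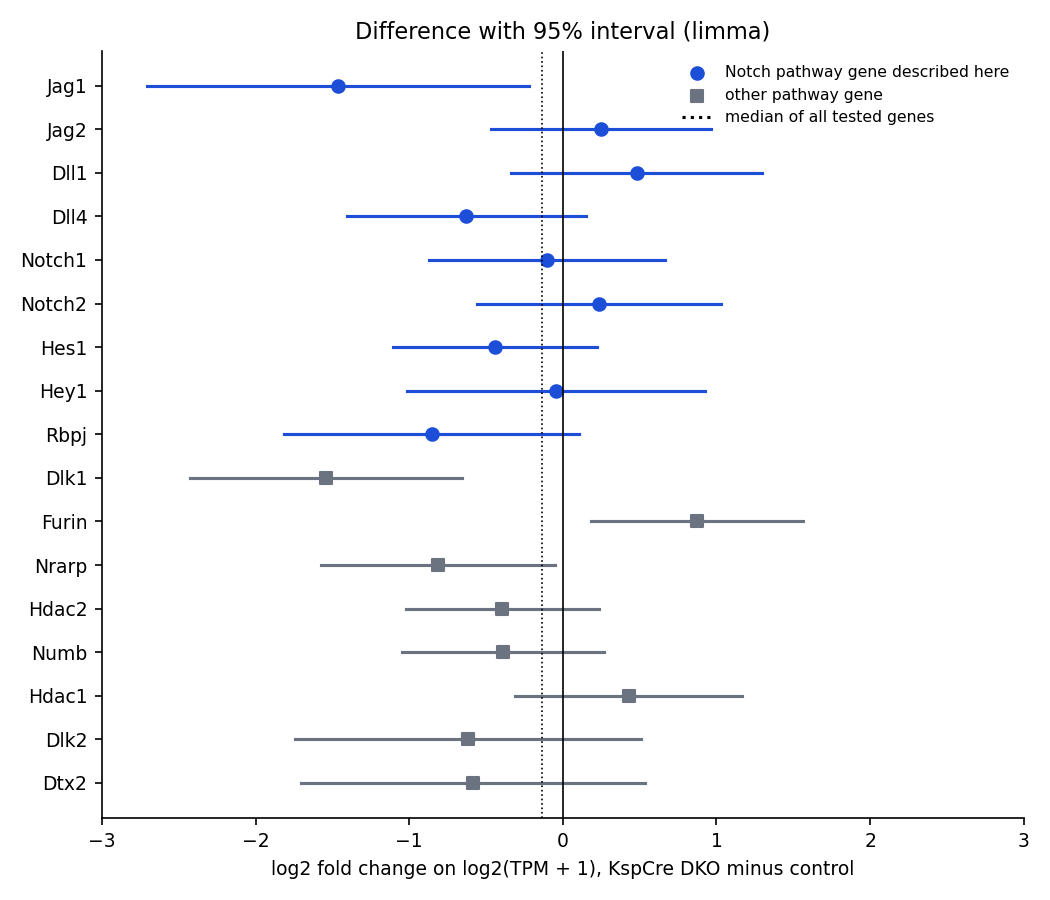
Log2 fold change of TPM + 1 (x axis; KspCre DKO minus control), with its 95% interval from limma (lines), for the 9 Notch pathway genes (circles) and 8 further pathway genes (squares). The solid line is 0 and the dotted line the median of all tested genes, −0.14; of the 9 genes, the interval of Jag1 lies below 0, before adjustment for the number of genes tested.

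In order of level, the KspCre DKO kidneys ran Hes1, Dll1, Jag2, Notch2, Jag1, Notch1, Dll4, Rbpj and Hey1, from a mean of 30.7 ± 1.65 TPM for Hes1 to 1.95 ± 0.48 TPM for Hey1 (SD, n = 2). Hes1 and Dll1 stood apart from the gene after them, while neighbours from Jag2 down overlapped between libraries. Controls ran Hes1, Jag1, Dll1, Jag2, Dll4, Notch2, Notch1, Rbpj and Hey1, from 42.7 ± 8.94 TPM to 2.13 ± 0.996 TPM (SD, n = 3). There the ranges separated Hes1 from Jag1, Jag2 from Dll4 and Rbpj from Hey1, and the other neighbours overlapped. Jag1 averaged 6.61 ± 5.41 TPM in KspCre DKO kidneys, against 18.3 ± 7.58 TPM in controls. By these means it stood below Dll1 and Jag2 in KspCre DKO kidneys and above both in controls. Its place below Jag2 rested on KspCre DKO replicate 2, with Jag1 at 2.78 and Jag2 at 11.7 TPM. In KspCre DKO replicate 1 Jag1 was above Jag2, at 10.4 against 7.98 TPM.

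**Figure D4:**
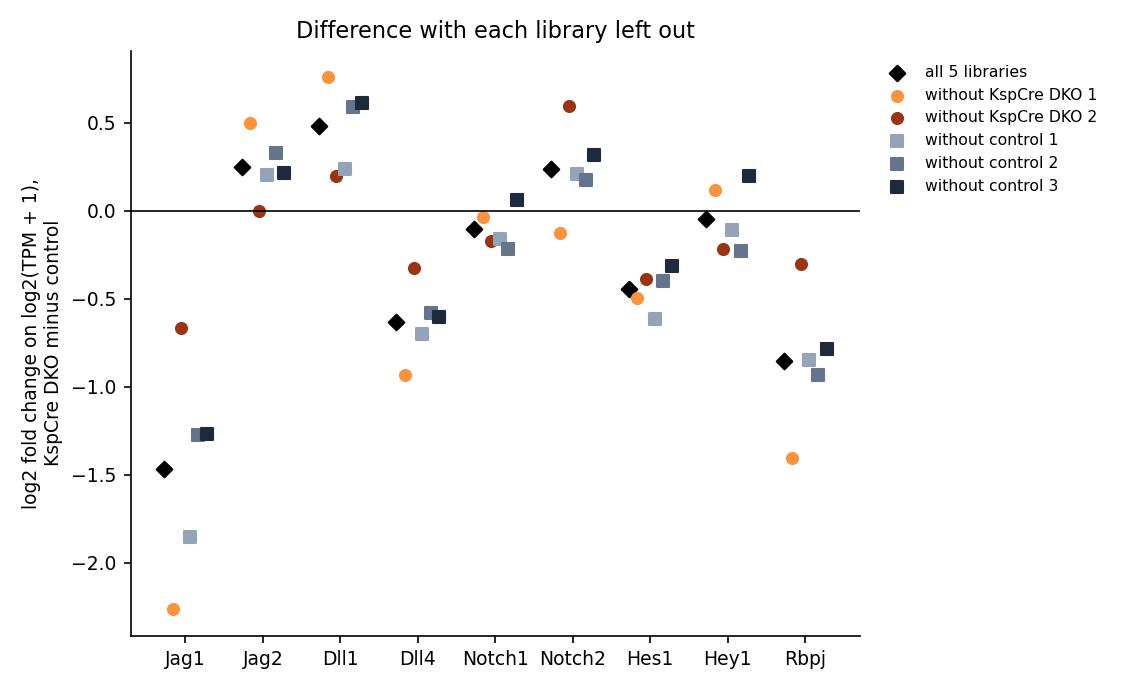
Log2 fold change of each gene, KspCre DKO minus control (y axis), with all 5 libraries (black diamonds) and with each library left out in turn (circles for KspCre DKO libraries, squares for controls). Leaving out KspCre DKO replicate 2 brought Jag1 to −0.67, Dll4 to −0.33 and Rbpj to −0.30, while Hes1 stayed at −0.39.

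The rest of the pathway was covered by a list of 54 genes, of which 51 had values and 45 were tested. None was called by limma in either direction. Of the 45 tested, 3 had an unadjusted p below 0.05, where the background was 10.3% of all tested genes. Their median log2 fold change was 0.015, with 23 positive and 22 negative values, against −0.14 over all tested genes. The groups did not overlap for 8 of 45 genes, 17.8%, against 26.1% of all tested genes. The genes left untested for low levels were Dll3, Dner, Dtx1, Hes5, Hes7 and Hey2. The ligand gene Dner was listed at 0 in all libraries, and the target gene Hes5 was listed at 0 in all but control replicate 1, at 0.05 TPM.

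Among further ligands, Dlk1, an imprinted gene for a noncanonical ligand, had the smallest p of the list. It stood at 1.62 and 0.72 TPM in KspCre DKO kidneys, against 4.53, 4.46 and 6.79 TPM in controls, with no overlap. Dlk1 differed by −1.54 ± 0.39 on the log2 scale (SE; adjusted p = 0.215, limma), and by −1.24 if KspCre DKO replicate 2 was left out. Dlk2, its paralog, had a log2 fold change of −0.62 (adjusted p = 0.698). Notch4, the endothelial receptor, had the highest level of the receptors measured, at 13.9 and 15.8 TPM in KspCre DKO kidneys and at 11.7, 7.49 and 15.8 TPM in controls, which overlapped.

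Of 10 genes for receptor cleavage, Furin stood out by p. Furin, a convertase that cuts Notch receptors on their way to the cell surface and many other proteins besides, stood at 46.5 and 30.1 TPM in KspCre DKO kidneys, against 21.99, 18.1 and 20.03 TPM in controls. Both KspCre DKO libraries lay above all controls, and the log2 fold change of 0.87 ± 0.30 (SE; adjusted p = 0.370, limma) did not pass. Leaving out KspCre DKO replicate 1 gave 0.57 and leaving out KspCre DKO replicate 2 gave 1.18. The other 9 genes, which include the sheddases Adam10 and Adam17 and the gamma-secretase subunits, had log2 fold changes of −0.34 to 0.23.

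Of 4 further tested genes listed as targets or their relatives, Nrarp, whose product limits Notch signalling as a feedback inhibitor, stood at 2.70 and 3.80 TPM in KspCre DKO kidneys, against 5.71, 7.72 and 5.94 TPM in controls. Both KspCre DKO libraries lay below all controls, and Nrarp differed by −0.81 ± 0.33 on the log2 scale (SE; adjusted p = 0.448, limma). This was −1.001 if KspCre DKO replicate 2 was left out and −0.63 if KspCre DKO replicate 1 was. Hes6 and Heyl, of the Hes and Hey families, and Bhlhe40, a related repressor, had log2 fold changes of −0.23, −0.063 and 0.045.

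The remaining named genes differed less. Hdac2, a histone deacetylase of RBPJ corepressor complexes, had a log2 fold change of −0.39 (adjusted p = 0.658), against 0.43 for its paralog Hdac1 (adjusted p = 0.681). Numb, an inhibitor of Notch receptors, had −0.39 (adjusted p = 0.676). Dtx2, a Deltex ubiquitin ligase, had −0.59 (adjusted p = 0.709), which turned to 0.24 without KspCre DKO replicate 2. Of 6 coactivator genes 5 had positive values and of 8 corepressor genes 6 did, each within −0.48 to 0.43. The 5 glycosylation genes, among them Lfng, Mfng and Rfng, which modify the receptors and set their choice of ligand, ran from −0.35 to 0.24.

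**Figure D5:**
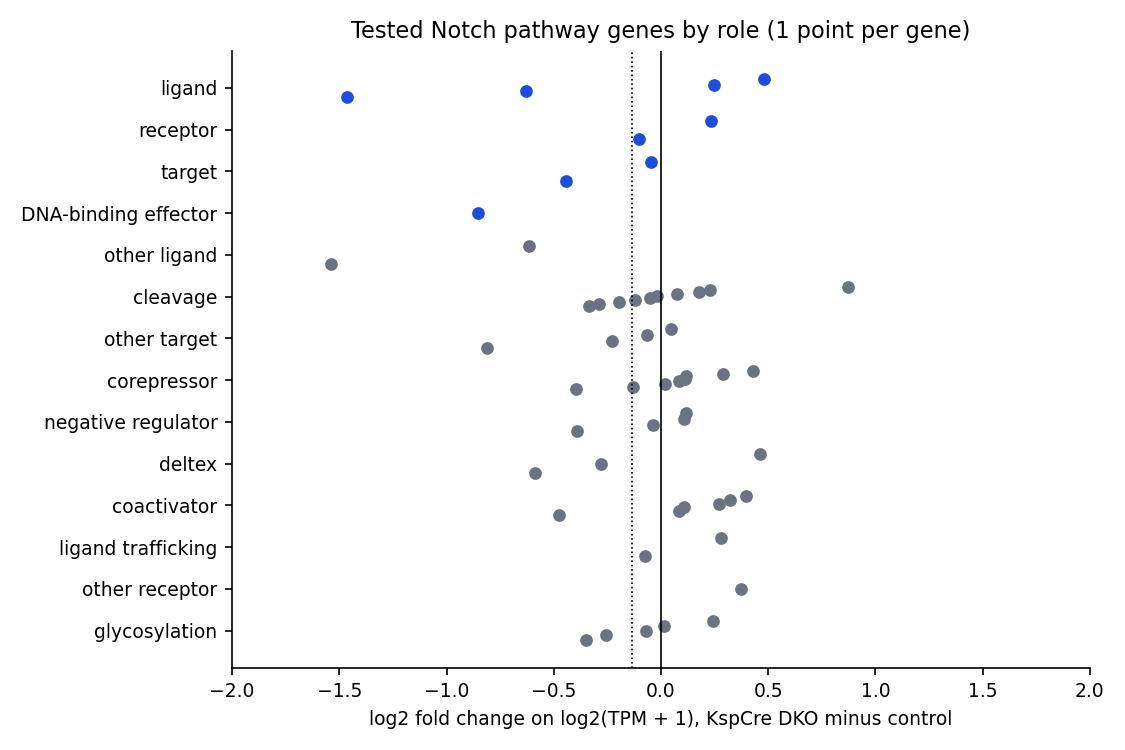
Log2 fold change of TPM + 1 (x axis; KspCre DKO minus control) of all tested Notch pathway genes by role (y axis, 1 point per gene; blue for the 9 genes described first and grey for 45 further genes). The solid line is 0 and the dotted line the median of all tested genes; Dlk1 and Jag1 lie farthest left at −1.54 and −1.46, and Furin farthest right at 0.87.

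Markers of kidney cell types were set beside these values. Principal cell markers, 9 of 10 with values, summed to 2559 and 2547 TPM in KspCre DKO kidneys, against 1059 to 1130 TPM in controls. Of these 9 markers 6 had positive and 3 negative log2 fold changes, the negative ones being those of Scnn1b, Scnn1g and Hsd11b2. For 8 of the 9 the groups did not overlap, with Scnn1b and Scnn1g lower in both KspCre DKO libraries. Much of the sum was Aqp2, at 1414 and 1218 TPM in KspCre DKO kidneys against 240 to 426 TPM in controls. Intercalated cell markers, 11 of 12 with values, summed to 528 and 443 TPM in KspCre DKO kidneys against 567 to 706 TPM in controls. All 10 tested members were negative, and 6 of them did not overlap between the groups. This was not particular to that list. All tested thick ascending limb (6), fibroblast (7), macrophage (5) and proliferation (6) markers were negative too, with 5, 3, 3 and 1 not overlapping. All 5 tested markers of the tubule list that includes Cdh16 were positive, with 2 not overlapping. Over all tested genes 8615 of 13963 values were negative, and 26.1% of genes did not overlap. Neither the principal nor the intercalated cell list held a called member, and no marker of either list was at 0 in any library. Thick ascending limb markers, 6 of 6, summed to 697 and 373 TPM in KspCre DKO kidneys against 1363 to 1458 TPM in controls. The sums of the principal cell, intercalated cell and thick ascending limb lists did not overlap between the groups. Nor did that of macrophage markers, 5 of 7, at 42.7 and 30.1 TPM in KspCre DKO kidneys against 50.7 to 97.5 TPM in controls. Apart from the arterial markers given with Dll4, the sums of the other lists overlapped. Proximal tubule markers, 7 of 8, summed to 6234 and 3064 TPM in KspCre DKO kidneys against 3414 to 4995 TPM in controls, and the tubule list that includes Cdh16, 5 of 6, to 1510 and 1179 TPM in KspCre DKO kidneys against 1080 to 1227 TPM in controls. Smooth muscle and pericyte markers, 9 of 10, summed to 92.8 and 101 TPM in KspCre DKO kidneys against 99.3 to 213 TPM in controls. Fibroblast markers, 8 of 8, summed to 73.8 and 111 TPM in KspCre DKO kidneys against 95.8 to 238 TPM in controls, with Lum at 0 in KspCre DKO replicate 2. Podocyte markers, 6 of 6, summed to 185 and 147 TPM in KspCre DKO kidneys against 94.8 to 267 TPM in controls. Proliferation markers, 6 of 6, summed to 18.2 and 12.5 TPM in KspCre DKO kidneys against 16.6 to 51.5 TPM in controls, with Ccnb1 and Ccnb2 at 0 in KspCre DKO replicate 2. The part of any of these shifts in the values of the Notch genes was not tested.

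Genes with a pattern like that of a Notch gene were sought by the distance between log2 profiles over the 5 libraries, each centred on its own mean. The nearest of 11614 genes to Jag1 were Anpep, a brush border aminopeptidase gene, Eno2 and Msantd1, at distances of 0.299, 0.382 and 0.390 log2 units. Anpep stood at 182 and 63.0 TPM in KspCre DKO kidneys and at 176, 342 and 314 TPM in controls. The nearest to Notch2 were Fam168b, Thsd4 and Kpna6, at 0.0681 to 0.0832, and the nearest to Rbpj were Cklf, Atp5c1 and Gpr173, at 0.0442 to 0.116. None of these 9 neighbours was called, which adds nothing, since they were picked for profiles like those of genes not called. With 5 libraries the distances are a description.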

How the data were processed

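Per the labels' protocols, whole-kidney RNA was selected for poly(A) and sequenced from TruSeq libraries. The deposited values are TPM per gene made by the authors, a unit that sums to 1000000 in each library. Trim Galore 0.5.0, STAR 2.2.1, RSEM 1.3.1 and the build mm10 are named in the submitters' processing notes; not given in the sources used here are the annotation release and the strand.

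Of 54146 identifiers, 96.9% matched a symbol. Positions come from RefSeq (GRCm38.p6). Groups come from the titles, with 2 KspCre DKO and 3 control libraries. The test was limma 3.58.1 (R 4.3.3), with an intensity trend on log2(TPM + 1), for genes averaging 1 TPM or more. Fold changes on this scale understate those of low genes. The fit was also run on simulated data with the same spread in every library and planted changes larger than those of the Notch genes. This cannot show how it handles a library like KspCre DKO replicate 2 or smaller differences. The gene and marker lists were chosen with earlier results of these data known. Named are the 10 genes, the 8 further pathway genes of smallest p, the 3 nearest in pattern to the gene of smallest p in each role, and up to 2 markers a list; other genes were named after their values were seen. Alternatives were other pseudocounts, filters, scalings, empirical Bayes settings, library weights, a replicate block and each library left out.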

Additional observations from a re-analysis of the deposited data

How the results depend on the processing

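No Notch gene and no further pathway gene was called under any of the 16 alternatives run. Over all tested genes the 23 calls became 14 and 39 with pseudocounts of 0.1 and 5, 4 with no filter, 42 with quantile normalization, 37 without mitochondrially encoded genes, 9 with no trend and 5 with array weights. Leaving out 1 library gave 6 to 560 calls. With the replicate number as a block there were 75 calls; the numbers are not stated to pair libraries, and deviations of same-numbered libraries correlated at 0.0926 and 0.0281 across genes. The block turned Notch1 to 0.064 and Hey1 to 0.20. Control replicate 3 is alone in its block and has no weight there, so these estimates equal those without that library. Hey1 also turned under median-of-ratios scaling (0.055), quantile normalization (0.057) and rescaling without mitochondrially encoded genes (0.037), and Notch1 under median-of-ratios scaling (0.0062). Leaving out 1 library gave −0.21 to 0.064 for Notch1, turned without control replicate 3. It gave −0.12 to 0.60 for Notch2, turned without KspCre DKO replicate 1. It gave −0.23 to 0.20 for Hey1, turned without control replicate 3 and without KspCre DKO replicate 1 (0.12), and −1.42 to 0.24 for Dtx2, turned without KspCre DKO replicate 2. Over these refits the share difference ran from −32.9 to −11.4 percentage points for Jag1 and from −1.90 to 14.7 for Notch2. The scalings moved the median of all genes to −0.033, −0.019 and −0.042, against −0.14 unscaled. The causes were not tested. The smallest adjusted p of a Notch gene was 0.0595, that of Rbpj without KspCre DKO replicate 1. With a mean of at least 5 TPM required, 7 of the 9 genes were tested. With all 5 libraries and the settings of the report, no gene of the whole table was called at a log2 difference under 1.68. Depth is unknown, so no counting limit can be given.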
